A study of Pomatostomus ruficeps with 28 samples.

Results

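Blood of 28 chestnut-crowned babbler nestlings (Pomatostomus ruficeps, a cooperatively breeding Australian songbird) was examined by enzymatic methyl sequencing, and 3350 of 1564780 CpG sites were all-or-none between nestlings. These sites were chosen by measured values: methylation was at most 10% (here called low) in at least 2 nestlings and at least 90% (high) in at least 2 other nestlings. The name stands for this rule only: of all values at these sites 13.3% were low, 32.1% were high and 54.6% lay between. Of the nestlings, 19 were raised by groups (3 or more carers, 14 to 20 days old) and 9 by pairs (2 carers, 14 to 19 days old). They were wild birds with 19 natal group codes, of which 7 were shared by 2 or more nestlings, some nestlings had been moved to other nests at hatching, and the rearing brood and the cross-fostering status were not used here. Each nestling was sampled once, so technical error was not measured. The red cells of birds keep their nucleus, so most DNA of bird blood comes from erythrocytes, but no marker of cell type was measured in these values.

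A CpG is a cytosine followed by a guanine, and in birds and other vertebrates most CpGs carry a methyl group on the cytosine, except in many promoters. A single cell holds a few copies of each site, each methylated or not. The level over many cells of blood is the methylated share of these copies, so it can be intermediate. In enzymatic methyl sequencing an unmethylated C is read as T, and a T in the genome of a bird is read in the same way. No genotypes were used, so these cases cannot be told apart here. CpGs near each other on a DNA molecule are commonly methylated together in vertebrates.

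Recovered reads (the methylated and unmethylated reads behind a percentage) set the precision of each value. Totals per nestling were 5266843 to 19539803 reads in groups and 8021028 to 17617440 reads in pairs, over 629681 to 1496607 sites in groups and 813513 to 1479067 sites in pairs. At all-or-none sites a low value rested on a median of 12 reads and at least 10, while a high value rested on a median of 10 reads and at least 5. The exact 95% interval (Clopper-Pearson) of 0% at 12 reads reaches up to 26.5%, that of 100% at 10 reads down to 69.2%, and that of 100% at 5 reads down to 47.8%, for counting error only. In the 27 nestlings whose reads were recovered from the coverage, a value was present only with 5 or more methylated or 10 or more unmethylated reads. These counts rest on how the coverage was read, which could not be checked against deposited counts in these nestlings. In nestling 79687 the reads were deposited and every value had at least 10.

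Most all-or-none sites were only just so at the low end. Exactly 2 nestlings were low at 2209 sites, 3 were low at 633 and 4 or more at 508, with at most 14 low nestlings at a site. Just outside the rule lay 11529 sites with exactly 1 low nestling and 2 or more high ones, and 373 sites with 2 or more low nestlings and exactly 1 high one. At the high end, 386 sites were just inside with exactly 2 high nestlings. Values of exactly 0% in 2 nestlings and exactly 100% in 2 others were found at 2609 sites.

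The all-or-none sites had a median mean methylation of 69.2% (quartiles 63.1% and 74.9%), against 86.9% (81.4% and 90.9%) at the sites outside the rule. Their median SD between nestlings was 31.3 percentage points, against 10.9 points outside the rule. The variance between nestlings was a median of 4.53 times what reads drawn at one common level would give, against 0.900 times outside the rule. These differences follow from the rule and are given as a description. The sites were measured in a median of 20 nestlings, against 21, and 3 of them were measured in all 28 nestlings. They were spread over 1674 of 22694 scaffolds, with exactly 1 on 1020 scaffolds. At most 20 lay on one scaffold (VYZT01014611.1, 20 of 1573 sites).

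The first question was whether the values fell on 3 levels, as the genotypes of a site with 2 alleles would. Values with at least 14 reads were used for this view, since at that depth no level can fail the read minimum. Of the 15878 such values at all-or-none sites, 18.5% were below 10%, 0.964% were between 10% and 20%, and the share then climbed to 9.55% between 50% and 60%. It dipped to 6.32% between 60% and 70%, and reached 18.8% at 90% or more. The peaks at both ends follow from the rule, which asks for 2 values at each end of every site. Over all 67605 values, whatever their reads, there was no dip: 7.66% lay between 50% and 60%, 7.72% between 60% and 70%, 10.8% between 70% and 80% and 32.1% at 90% or more. The middle rise was thus present with the minimum of 14 reads and absent with no further minimum. Values of at least 14 reads came unequally from the nestlings. The median at all-or-none sites was 16 reads in 79513 and 14 in 62618, 79578 and 79591, against 7 in 79556. Over all sites, 54.7% of values in 79513 had fewer than 14 reads, against 97.9% in 79556. Whether the rise is present without the deeper nestlings was not tested. Outside the rule 0.326% of values were below 10%, and the shares climbed without a middle peak to 29.5% between 80% and 90%.

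**Figure D1:**
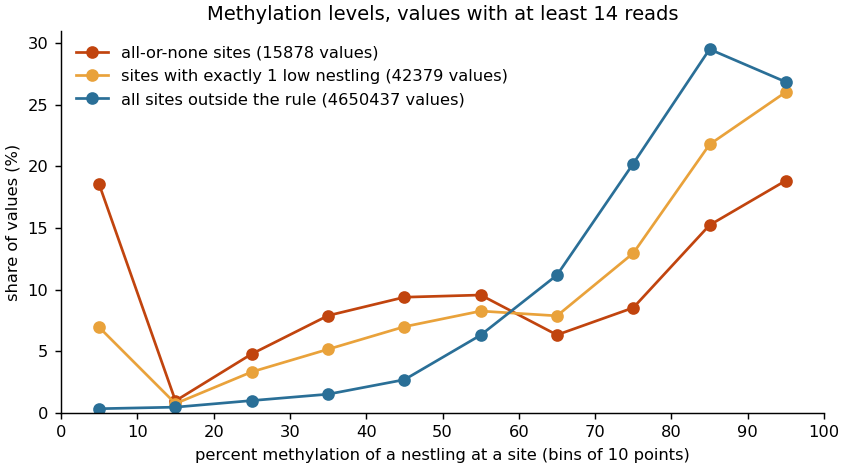
The share of values (%) is plotted in bins of 10 percentage points for all-or-none sites, for sites with exactly 1 low nestling and for all sites outside the rule, values with at least 14 reads. The line of the all-or-none sites has the end peaks that the rule asks for (18.5% and 18.8%) and a middle rise (9.55% between 50% and 60%) that is absent over values of any depth, while that of the sites outside the rule has a single peak above 80%. The line of the sites with exactly 1 low nestling has a smaller dip, from 8.25% between 50% and 60% to 7.86% between 60% and 70%. The plotted values came unequally from the nestlings.

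Of the values strictly between 10% and 90% with at least 14 reads, 44.3% lay from 35% to 65% at all-or-none sites (9942 values), 34.7% at sites with exactly 1 low nestling (28400 values) and 22.2% at all sites outside the rule (3386157 values). The medians of these values were 57.1%, 71.4% and 76.9% in the same order of sites. Sites outside the rule had higher means, which moves with this share, and the part of the mean in it was not tested. The shares also rest more on the deeper nestlings, whose part was not tested.

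Site by site, the reads were better described by 3 fixed levels (2%, 95% and their midpoint, with free shares of nestlings) than by a smooth beta-binomial spread at 1934 of 3350 sites (57.7%). The log-likelihood was higher by 2 or more with 3 levels at 1093 sites (32.6%), and higher by 2 or more with the beta-binomial at 793 sites (23.7%). The mean shares of nestlings were 13.6% at the bottom level, 32.9% at the middle level and 53.5% at the top level. Since the shares were free, a site could be better described by 3 levels with no nestling at the middle one. The rule picked sites with nestlings near the bottom and top levels, which favours this description, and no share over unselected sites was computed, so the count is a description only. The count rested on where the top level was set and on the depth. With the top level at 90% it was 2633 sites, with the top level at 98% it was 854 sites, and with values of at least 14 reads it was 1039 of the 2188 sites that kept 4 or more values (47.5%).

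The sites measured in most nestlings differed in which description was better. On scaffold VYZT01055132.1 at position 13248 (27 nestlings, median of 10 reads), the lowest, median and highest values were 0%, 90% and 100% in groups and 0%, 87.5% and 100% in pairs. The 2 low nestlings, 79685 from a group (11 reads) and 62618 from a pair (26 reads), were at 0%, and every other nestling was at 75% or more. No nestling was thus near the middle level, although the log-likelihood of this site was 11.4 higher with 3 levels than with the beta-binomial.

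At 2 other sites, picked for the largest difference in favour of the beta-binomial, more of the range was filled. At position 318 of VYZT01110680.1, measured in all 28 nestlings with a median of 30 reads, the lowest, median and highest values were 0%, 63.0% and 95.7% in groups and 0%, 54.5% and 83.3% in pairs. Of its nestlings 8 were low, all at 0%, 16 were between and 4 were high. The values above 0% ran from 14.3% to 95.7%, and the difference in log-likelihood (3 levels minus beta-binomial) was -27.9. At position 552 of VYZT01123646.1 (27 nestlings, median of 18 reads) the values were 0%, 82.6% and 95% in groups and 28.6%, 81.8% and 95.2% in pairs, and the difference was -15.5.

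Positions 103 and 104 of VYZT01105644.1, also measured in all 28 nestlings, are neighbouring bases, as the C of each strand of one CpG would be. At position 103 the lowest, median and highest values were 0%, 65.5% and 95.8% in groups and 45.8%, 69.0% and 91.5% in pairs, with a median of 24 reads. At position 104 they were 0%, 63.6% and 96.9% in groups and 45.5%, 77.3% and 92.9% in pairs. The same 4 nestlings, all raised by groups (62642, 79556, 79594 and 79523), were low at both positions, while the ranges of groups and pairs overlapped. The difference in log-likelihood was 1.28 for 3 levels at position 103 and -7.53 at position 104. Position 495 of VYZT01123347.1 (27 nestlings) ran from 9.09% through 35.7% to 100% in groups and from 0% through 47.4% to 95% in pairs, and its difference was -8.62. The rule for named sites took 4 sites with the largest differences among the 7 sites measured in 27 or 28 nestlings, so 2 of these 4 are better described by the beta-binomial.

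The second question was whether nestlings of one natal group shared their levels. For each of the 378 couples of nestlings, the deviations from the site mean were correlated over the all-or-none sites that both had. The 12 couples with one natal group code had a median correlation of -0.02 (range -0.13 to 0.55), against -0.06 (range -0.19 to 0.56) in the 366 couples with different codes. The gap between these medians was 0.0465, and it was 0.173 with values of at least 14 reads and 0.0258 with 1 all-or-none site per 10 kb. The minimum of 14 reads draws more on the deeper nestlings, some of which are in the similar couples named below. The part of these nestlings in the gap of 0.173 was not tested. The couples share nestlings and the sites share reads and scaffolds, so the values are a description and have no test.

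A few couples stood above the others. Of the 378 couples 7 had a correlation above 0.3, a limit set after the values were seen. The next highest were 0.207, 0.188 and 0.174, followed by 0.1155. Of these 7, 3 had one natal group code: 79687 and 79684 (code OFS, 0.547), 79563 and 79561 (SFO, 0.531), and 79677 and 79676 (OFQ, 0.454). The other 4 had different codes: 79685 and 62618 (OFS and WFL, 0.565), 79591 and 62525 (BFD and CET, 0.528), 79594 and 79578 (BFG and CEG, 0.363), and 79677 and 79633 (OFQ and EFH, 0.326). Of the 7 couples, 3 joined a nestling raised by a group to one raised by a pair. Conversely, 8 of the 12 couples with one code had correlations of 0.05 or less, for example -0.13 for 79591 and 79590 (both BFD) and -0.06 for 79633 and 62605 (both EFH). The remaining couple with one code, 79578 and 62645 (both CEG), was at 0.188 and ranked 9 among all couples. The natal group code thus named 3 of the 7 most similar couples. The code is not the brood, and the paper sampled more than one breeding season. Whether nestlings of one code shared parents, a brood or a season was not checked. Whether the codes and the identities of the samples are right was not tested.

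The 7 couples were also the 7 with the fewest opposite values. One nestling was low where the other was high at 1.76% to 2.42% of shared all-or-none sites in these couples, against 3.25% to 13.6% in the other couples. Of the 2209 sites with exactly 2 low nestlings, 386 (17.5%) had one of these couples as the low nestlings, while these are 1.85% of all couples. The couples were picked for their likeness over these sites, so this count restates that choice, and nestlings differed widely in low values (79 to 692 each). The nestlings 79591 and 62525 alone were the 2 low ones at 145 sites (6.56%), and they were also among the deepest at these sites, with medians of 14 and 13 reads. Couples with one code, 3.17% of all couples, were the 2 low nestlings at 210 sites (9.51%). Of these sites 139 came from the 3 such couples above 0.3 and 38 from 79578 and 62645 (0.188). The 8 couples at 0.05 or less gave 33 (1.49% of the 2209). The part of depth in these counts was not tested.

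The same couples led at sites that the rule left out. Over the 11529 sites with exactly 1 low nestling, where no couple can share a low value, all 7 couples were among the 10 most similar. Their correlations there were 0.201 (79685 and 62618), 0.218 (79687 and 79684), 0.194 (79563 and 79561), 0.279 (79591 and 62525), 0.141 (79677 and 79676), 0.128 (79594 and 79578) and 0.0798 (79677 and 79633), against a median of -0.05 in couples with different codes. Over the remaining sites of the table the range was narrow, from -0.06 to -0.01 in couples with one code and from -0.07 to 0.01 in couples with different codes. Among all 378 couples, 79591 and 62525 ranked 1 there, 79687 and 79684 ranked 2, and 79685 and 62618 ranked 3. The other similar couples ranked 7 (79563 and 79561), 18 (79677 and 79676), 21 (79677 and 79633) and 51 (79594 and 79578).

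**Figure D2:**
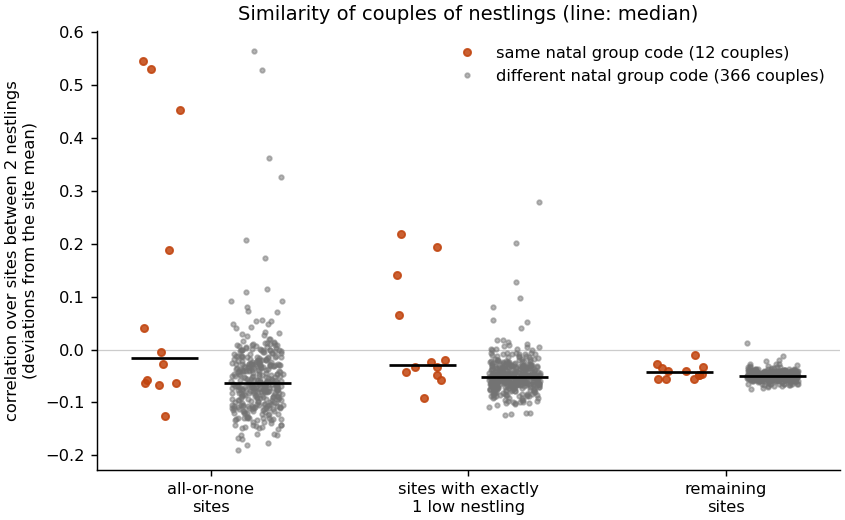
Each point is the correlation between 2 nestlings of their deviations from the site mean, for couples with one natal group code and couples with different codes, over all-or-none sites, sites with exactly 1 low nestling and the remaining sites. At all-or-none sites 7 couples lie above 0.3, 3 with one code and 4 with different codes, while the medians are -0.02 and -0.06.

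Tested site by site, the natal group code called 0 of 2516 all-or-none sites (those with at least 4 codes of 2 or more measured nestlings). The test was a one-way F test on arcsine square root values with limma's moderation of the variance within codes, Benjamini-Hochberg adjusted over all 1270621 sites tested, of which it called 0.00%. At an unadjusted p under 0.05 the moderated test took 1544 all-or-none sites (61.4%), against 2.08% of all sites tested. The rule selects sites of large variance, and the median variance within codes was 0.166 at these sites against 0.0416 at other sites, while moderation draws each site's variance towards the common one. Without moderation an unadjusted p under 0.05 was found at 381 all-or-none sites (15.1%), against 6.0% of all sites tested, and after adjustment 6 all-or-none sites (0.238%) were called, against 0.328% of all sites. On raw percentages the moderated F test called 29 all-or-none sites (1.15%), against 0.00260% of all sites tested. Without moderation the share after adjustment thus rested on 6 sites and lay near the background, while the unadjusted share lay above it. On raw percentages the share lay above the background, with the same moderation of variances.

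The smallest natal group p belonged to position 6875 of VYZT01037246.1, where the lowest, median and highest values were 0%, 80.2% and 100% in groups and 0%, 0% and 83.3% in pairs (median of 10.5 reads). Its 8 low nestlings, all at 0%, included both measured nestlings with code BFD and both with code CEG, and the 2 nestlings with code OFQ were at 71.4% and 83.3%. At position 32879 of VYZT01033903.1 the values were 0%, 77.9% and 100% in groups and 40%, 96.4% and 100% in pairs. Here 3 nestlings with code OFS and 1 with code SFR were at 0%. For both sites the adjusted p of the moderated F test was 0.112 (limma), and these sites were taken as the smallest of 2516, so the order carries no further test.

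The carer classes were then compared, as the study was designed to do. At all-or-none sites the nestlings averaged 70.3% ± 8.26 methylation in groups and 67.6% ± 5.43 in pairs (SD, n = 19 and 9 nestlings). Low values made up 12.2% ± 4.81 of the values in groups and 13.7% ± 3.05 in pairs, and high values 34.0% ± 6.87 in groups and 31.3% ± 5.43 in pairs. None of these differences exceeded the SD within either carer class, and the ranges of the low share overlapped (5.28% to 22.2% in groups, 8.72% to 19.6% in pairs). The nestlings with the lowest shares of low values, 61511 (5.28%) and 79556 (5.76%), had medians of 8 and 7 reads. Those with the highest shares, 79591 (22.2%), 79687 (20.1%) and 62525 (19.6%), had 14, 12 and 13. The deepest nestling, 79513 with a median of 16 reads, had 16.3%. The part of depth in the share of low values was not tested. The raw mean was higher in groups at 1762 of the 3350 sites (52.6%), against 55.6% of sites outside the rule.

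A beta regression of methylation on carer class and age called 0 of the 3350 all-or-none sites at an adjusted p of at most 0.01 and 25 points between predicted means, against 0.00160% of all 1564780 sites. At an unadjusted p under 0.05 it took 201 all-or-none sites (6.0%), against a background of 8.48%. With limma on logit values 0 sites of the table were called, and an unadjusted p under 0.05 was found at 573 all-or-none sites (17.1%), against 4.92% of all sites. The beta regression and limma thus placed the all-or-none sites on opposite sides of their backgrounds. As in the natal group test, limma draws the variance of each site towards the common one, and the rule selects sites of large variance. The limma share is therefore not read as a result about carer class. With a random intercept for the natal group code the beta regression called 14 of 3344 all-or-none sites (0.419%), against 0.0209% of the 1556665 sites fitted. The rule picks sites of large spread (median SD of 31.3 points, against 10.9 outside it), which eases the limit of 25 points. In the fit without the random intercept the smallest adjusted p at these sites was 0.0133 (beta regression), above 0.01. The limit of 25 points thus did not act there, and its count of 0 does not bear on that limit. Why the count moved was not tested, and the share of 0.419% is a description only. Of these 14, 10 were higher and 4 lower in groups, 2 had a raw difference of the opposite sign, and 8 had an unadjusted p under 0.05 without the random intercept. Raw differences among the 14 ran from 0.849 to 56.7 points in size.

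The 2 all-or-none sites with the smallest carer p were both higher in groups. At position 194290 of VYZT01060770.1 the lowest, median and highest values were 75%, 92.6% and 100% in groups and 0%, 34.6% and 87.5% in pairs, with a median of 12 reads. The ranges overlapped, and the 3 low nestlings, 61667, 79677 and 79676, were all raised by pairs. The logit coefficient for groups was 2.37 ± 0.543 (SE), with an adjusted p of 0.0133 in the beta regression and 0.000507 with the natal group intercept. At position 51550 of VYZT01054186.1 the values were 23.8%, 81.2% and 100% in groups and 0%, 12.4% and 75% in pairs. Its coefficient was 2.37 ± 0.549 (SE), with an adjusted p of 0.0148 in the beta regression and 0.00349 with the natal group intercept. The predicted difference here was 53.2 points in both fits, so the lower adjusted p does not mean a stronger effect. Each adjustment ran over the p-values of its own fit. At this site too the 3 low nestlings were raised by pairs (79676, 79677 and 79561), and 79676 and 79677, which have one natal group code and were one of the 7 similar couples, were low at both sites.

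The third question was whether neighbouring sites follow an all-or-none site. A neighbour within 100 bp was found for 3138 of the 3350 sites (93.7%). Over 24377 couples of a site and a neighbour with at least 12 shared nestlings, the median correlation across nestlings was 0.0859, against 0.110 for sites outside the rule. The neighbour moved by a median of 2.70 points for 100 points at the all-or-none site, against 10.5 points for other sites. This slope divides by the variance at the first site, which the rule makes large, so a lower slope follows in part from the rule. By the median correlation most neighbours did not follow, and the same held for sites outside the rule. Strong following was more frequent all the same, with a correlation above 0.7 for 4.16% of neighbours (1015), against 1.39% for other sites. Of the 1015, 275 were at 1 bp and 394 were themselves all-or-none, with some in both counts. For neighbours outside the rule at 2 to 100 bp the share was 2.04% (482), against 1.39% for other sites. The rule also selects sites of large spread, and the part of spread in these shares was not tested. These values share nestlings and reads along each scaffold and have no test.

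The correlations were higher at 1 bp, and among neighbours that were themselves all-or-none, a split that the rule itself shapes, since both sites then hold values at both ends. At a distance of 1 bp, where both positions can be the strands of one CpG (or belong to adjoining CpGs, which was not checked), the median correlation was 0.846 (386 couples) and the slope was 82.6 points for 100, against 0.0499 and 4.85 for other sites. Only 366 all-or-none sites (10.9%) had a site at 1 bp, against 38.7% of all sites in the table. From 2 to 100 bp, 402 of the neighbours (1.67%) were all-or-none, against 0.246% of the neighbours of other sites. Among these 402 (201 couples, each seen from both sites) the median correlation was 0.874 (quartiles 0.00715 and 0.949), and it was 0.0785 for the neighbours outside the rule. This difference is a description of the selected sites.

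The correlation fell with distance for both kinds of neighbour. For all-or-none neighbours the median correlation was 0.961 at 2 to 5 bp, 0.925 at 6 to 20 bp, 0.80 at 21 to 50 bp and 0.556 at 51 to 100 bp. For other neighbours it was 0.215, 0.146, 0.0661 and 0.0369 in the same bins, each below the value for sites outside the rule with any neighbour (0.293, 0.206, 0.111 and 0.0578). All-or-none sites farther apart were less alike, with medians of 0.397 from over 100 to 1000 bp (210 couples) and 0.249 from over 1000 to 10000 bp (804 couples). From over 1000 to 10000 bp, 30.1% of couples had a correlation above 0.7 and 0.995% one below -0.7. No share over unselected sites was computed at these distances. The rule puts low and high nestlings at both sites of a couple, so these shares are a description only.

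**Figure D3:**
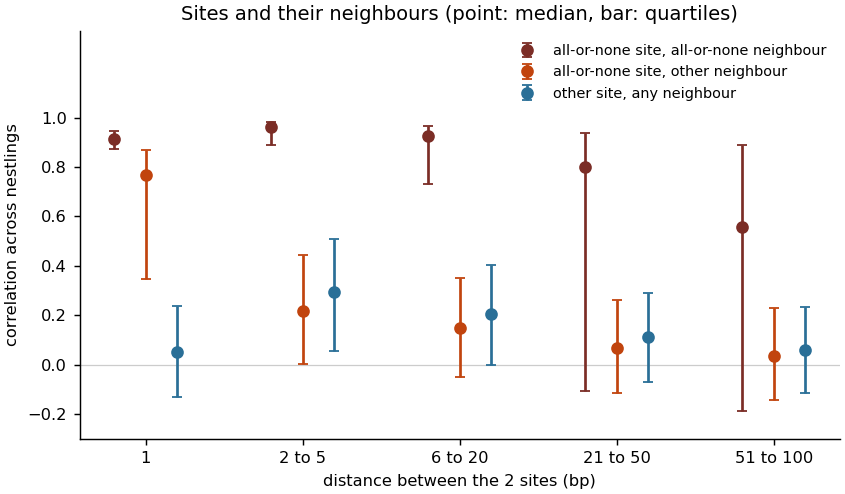
The correlation across nestlings between a site and its neighbour is plotted by distance (bp), with the median as a point and the quartiles as a bar. All-or-none sites with all-or-none neighbours stay at 0.556 or more, while with other neighbours they fall below the sites outside the rule from 2 bp on.

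A site whose whole surroundings follow was rare. Of 2503 all-or-none sites with 3 or more neighbours at 2 to 100 bp, 47 (1.88%) had a mean correlation above 0.5 and 19 (0.759%) above 0.7, against 1.09% and 0.125% of sites outside the rule. Sites of both kinds of level were among them. The median of the mean correlation was 0.0892 at 879 sites better described by 3 levels by 2 or more, with 7 above 0.5 (0.796%), and 0.110 at 557 sites better described by the beta-binomial by 2 or more, with 21 above 0.5 (3.77%). Sites joined by gaps of at most 100 bp formed 2873 single sites, 211 runs of 2, 14 runs of 3, 2 runs of 4 and 1 run of 5.

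The run of 5 covered positions 17355, 17398, 17412, 17439 and 17465 of VYZT01037079.1, with correlations of 0.69 to 0.95 between its sites. At position 17355 the lowest, median and highest values were 0%, 86.1% and 100% in groups and 0%, 85.7% and 100% in pairs. At 17398 they were 0%, 75% and 100% in groups and 0%, 70% and 92.9% in pairs, and at 17412 they were 0%, 61.1% and 100% in groups and 8.33%, 65.7% and 92.9% in pairs. The same 2 nestlings, 62605 from a group and 62645 from a pair, were the low ones at all 5 sites, at 0% to 8.33%. At 17439 the values were 0%, 90% and 100% in groups and 7.69%, 88.8% and 100% in pairs, and at 17465 they were 0%, 77.4% and 100% in groups and 0%, 77.8% and 100% in pairs. Nestlings 79591 (23.8% to 40%), 62534 (42.9% to 56.25%), 79578 (42.9% to 63.6%) and 79563 (55.6% to 88.9%) lay between at all 5 sites. At 17412 nestling 79513 was lower than 79591, at 30%. The site at 17444, not all-or-none, followed 17439 with a correlation of 0.955. Natal group codes of the 2 low nestlings differed (EFH and CEG), and groups and pairs overlapped at every site of the run.

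**Figure D4:**
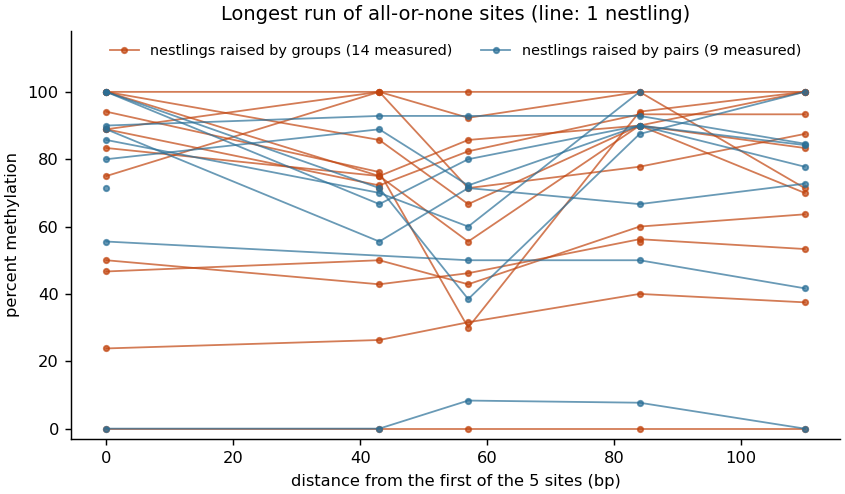
Percent methylation of each nestling along the longest run of all-or-none sites, against the distance (bp) from its first site, with 1 line a nestling. One nestling of each carer class stays between 0% and 8.33% at all 5 sites, and 79591 stays between 23.8% and 40%.

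Other sites with following neighbours differed in how far the neighbours went. At position 707 of VYZT01022217.1 the lowest, median and highest values were 0%, 37.9% and 100% in groups and 0%, 75% and 95% in pairs, with 6 low nestlings of 19. Its 3 neighbours at 689, 705 and 710 were all-or-none too and followed with correlations of 0.971, 0.984 and 0.954. At position 18130 of VYZT01043327.1 the values were 0%, 78.0% and 100% in groups and 62.5%, 77.5% and 100% in pairs. Its neighbours at 18095, 18145 and 18148 were not all-or-none, and their correlations were 0.896, 0.884 and 0.893.

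At the other extreme, the mean correlation with the neighbours was negative. At position 432089 of VYZT01058133.1 the lowest, median and highest values were 8.33%, 88.9% and 100% in groups and 0%, 90% and 100% in pairs, with 2 low nestlings (79590 and 62618). Its 3 neighbours at 432002, 432020 and 432076 stayed at 62.5% or more in every nestling, with correlations of -0.537, -0.496 and -0.302. At position 46025 of VYZT01035365.1 the values were 0%, 71.4% and 100% in groups and 0%, 50% and 73.3% in pairs, and its neighbour at 46027, 2 bp away, stayed at 71.4% or more (correlation -0.516), while those at 46028 and 46046 had correlations of -0.0046 and -0.509. Both sites were picked as the lowest of all in mean correlation. Among couples of all-or-none sites 2 to 100 bp apart, 2 of 201 had a correlation below -0.7. The lower one, picked after its value was seen, was -0.985 over 14 nestlings between positions 63873 and 63893 of VYZT01022891.1, 20 bp apart, with mean methylation of 73.8% and 34.4%.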

How the data were processed

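DNA of nestling blood was converted enzymatically and sequenced. Per its methods, the study used HTStream for trimming and Bismark for mapping to the species' own genome (versions not given in the sources used here), and the authors collapsed strands and removed sites of low or extreme coverage, of low presence or of low variation. A removal of sequence variants is not given in the sources used here. The deposited percent values are the methylated share of the reads of 1 nestling at 1 site, with no scaling across birds. Read counts were filled in for 1 nestling only, 79687, and there the coverage equalled the reads. In the other 27 the coverage was read as a sum, and counts were solved from it. The sum was 2 times the methylated reads (where that was 10 or more) plus the unmethylated reads (where 10 or more). Whole counts (within 1e-06) were found for 100% of values below 100%, against 13.8% to 28.2% with shuffled coverage. This reading could not be checked against deposited counts, and 79687 met it at 7.17% of values below 100%. The paper removed sites of coverage under 10, while recovered reads can be fewer. Positions 1 bp apart occur although strands were collapsed: 310421 such couples. Scaffold positions are as deposited; no genome was used, so gene context is not analysed here. Another 7 columns (among them mass, rain and condition) were left out.

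The members and lists were chosen with earlier results of these data known. Groups came from the labels. Levels were compared by maximum likelihood, neighbours by Pearson correlation over at least 12 shared nestlings, carer class by beta regression (Newton maximum likelihood, Wald test; random intercepts by Laplace approximation, which could not be fitted at 8115 sites), and natal group by an F test with squeezeVar of limma 3.58.1 in R 4.3.3, fitted on the whole table with Benjamini-Hochberg adjustment. Python 3.11.15, numpy 2.4.6, scipy 1.17.1 and numba 0.67.0 were used, and fits were tested on simulated data. Nothing in the sources says that nestlings were sampled more than once, so errors are spreads between nestlings. Named sites were those measured in most nestlings with the largest log-likelihood differences (4 for 3 levels, 2 for the beta-binomial), those with the highest (3) and lowest (2) mean correlation with 3 or more neighbours, the 2 smallest natal group and carer p, and the longest run. Alternatives changed one choice at a time.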

Additional observations from a re-analysis of the deposited data

How the results depend on the processing

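The number of all-or-none sites, 3350, was 5163 at limits of 20% and 80%, 965 with 3 nestlings at each end, 147 with values of at least 14 reads and 1641 with 1 nestling per natal group code (19 nestlings entered). It was 2632 at limits of 5% and 95%, 2603 with at least 10 reads and, chosen after seeing the data, 3118 without nestling 79687. The number of sites better described by 3 levels, 1934, was 1039 with at least 14 reads, 854 with the top level at 98%, 2633 with it at 90% and 1093 at a log-likelihood difference of 2. Median similarity of couples with one natal group code exceeded that of other couples by 0.0465 in correlation and by 2.79 points as mean absolute difference, another unit. It was 0.173 with at least 14 reads, 0.0258 with 1 site per 10 kb and, chosen after seeing the data, 0.0237 over sites with exactly 1 low nestling and 0.0332 without nestling 79687. The median neighbour correlation, 0.0859, was 0.119 at 50 bp, 0.0667 at 200 bp, 0.0871 with 10 reads, 0.107 with Spearman correlations, 0.0967 with 18 shared nestlings and, chosen after seeing the data, 0.0810 without neighbours at 1 bp. All-or-none sites called for carer class, 0, were 14 with a random intercept for the natal group code. Those called for natal group, 0, were 29 on raw percentages (of 33 sites called in the table) and 6 without moderation. The causes were not tested beyond the fewer values or nestlings entered. Settings with at least 14 reads drew more on the deeper nestlings. No paired analysis was possible because carer classes do not share replicate numbers that pair nestlings. Most values rested on few reads, so single values near 0% or 100% are loosely placed, and low values needed more reads than high ones.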
